A study of Mus musculus with 2 samples.

Results

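Cytotoxic CD8 T cells were taken from 2 single-cell libraries of mouse intestine as the barcodes that carried T cell, CD8 and Ccl5 transcripts together. A barcode was kept if it had 500 or more unique molecular identifiers (UMIs, each standing for 1 captured RNA molecule), 250 or more genes and no more than 25% of UMIs from mitochondrial genes. Members were then selected on measured UMIs: at least 2 of Cd3d, Cd3e and Cd3g together, at least 1 of Cd8a or Cd8b1, at least 2 of Ccl5, and none of Trdc, Foxp3, Cd79a or Epcam. This gave 220 cells of 15156 kept barcodes, 83 of 6909 in the RA library and 137 of 8247 in the butyrate library. The levels of those 10 genes therefore chose the cells and are given below as description. The cut on Ccl5 passed through a sparse region, with 1 RA and 7 butyrate barcodes at exactly 1 Ccl5 UMI just outside it, and 0 RA and 8 butyrate barcodes at exactly 2 UMIs just inside it. A further 33 RA and 59 butyrate barcodes met every other criterion but had no CD8 UMI.

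The study asked about butyrate, a short-chain fatty acid made by gut bacteria, given in the diet in mice with rheumatoid arthritis. Each library came from the whole intestine of 1 wild-type (WT) mouse: the RA library from a mouse on standard chow, which the series describes as the collagen-induced arthritis (CIA) group, and the butyrate library from a mouse on a 1% butyrate diet. Whether the butyrate mouse had arthritis too is not stated, nor are strain, age or sex. The Y-linked genes Ddx3y, Uty and Eif2s3y had 8291, 6789 and 5004 UMIs in kept RA barcodes and 8065, 7503 and 3174 in butyrate. Xist, a gene of female cells, had 7 and 8, so both libraries read as male. With 1 mouse a group, diet, mouse and library cannot be told apart, no test between the groups was made, and every interval below covers counting error within these 2 libraries.

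CD8 T cells recognise peptides on MHC class I and kill the presenting cell, mainly by releasing perforin and granzymes from secretory granules. In the gut many of them live between epithelial cells or in the lamina propria, carry adhesion molecules such as CD103 (Itgae) and CD49a (Itga1), and respond quickly with chemokines and interferon gamma. Some intraepithelial CD8 T cells carry a CD8 alpha homodimer in place of the alpha-beta form, and naive or central memory cells carry the transcription factors TCF1 (Tcf7) and LEF1 and the exit receptor S1PR1.

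The 10140 RA and 9959 butyrate barcodes held 61912439 and 67894477 UMIs. Members had a median of 6064 UMIs (interquartile range 4862 to 9742) in RA and 8474 (6772 to 11017) in butyrate, so that shares of cells with a UMI are also given after every cell was thinned to 1000 UMIs. The mitochondrial share had a median of 2.29% and 2.07%. No member barcode sequence occurred in both libraries, against 27 over all barcodes. RNA of stroma and fat differed between the member sets: 21 of 83 RA members carried UMIs of the 8 stroma markers or of Cfd, Car3, Fabp4, Lpl, Adipoq and Adamdec1, 4359 in all with 78.1% of them in 1 cell, against 2 UMIs in 2 of 137 butyrate members. All 8 stroma markers were seen in RA members, summing to 0 to 173 UMIs per 10000 of a cell, and 2 of the 8 in butyrate members, at 0 to 0.755. Several results, but not all that this touches, are given again for the 62 RA and 135 butyrate members with none of these UMIs. Comparisons with other populations and splits within the members are given over all members only.

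The label was checked against markers that the rule did not use. Nkg7, a granule membrane protein of cytotoxic lymphocytes, was detected in 94% (86.5 to 98) of RA members and 93.4% (87.9 to 97) of butyrate members (exact 95% binomial intervals, as for all shares). Gzmk, which encodes granzyme K, was detected in 44.6% (33.7 to 55.9) and 38% (29.8 to 46.6). In B cells, which should lack both, Nkg7 was found in 0.121% of 2470 RA and 0.136% of 3667 butyrate cells, and Gzmk in none. T cell receptor constant genes (Trac, Trbc1 or Trbc2) were seen in 82 of 83 and 137 of 137 members. Of 7 NK and ILC1 markers, Ncr1, Klrb1c, Klra4 and Klra8 were at 0 in both libraries. The other 3, Klre1, Tyrobp and Eomes, summed to 44 UMIs in 11 RA members and 80 UMIs in 43 butyrate members. Cd4 was seen with CD8 in 0 RA and 2 butyrate members. RNA of other lineages was present. Myeloid markers summed to 216 UMIs in RA members (339 CPM of the summed members, up to 50.7 per 10000 UMIs of a cell) and 172 in butyrate members (130 CPM, up to 5.38), in 52 and 86 cells, and their part in the results was not tested. Epithelial markers other than Epcam summed to 159 UMIs in RA members (median 2.51 per 10000 UMIs of the cell) and 175 in butyrate members (1.24), and B cell markers other than Cd79a to 31 and 76 UMIs.

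**Figure D1:**
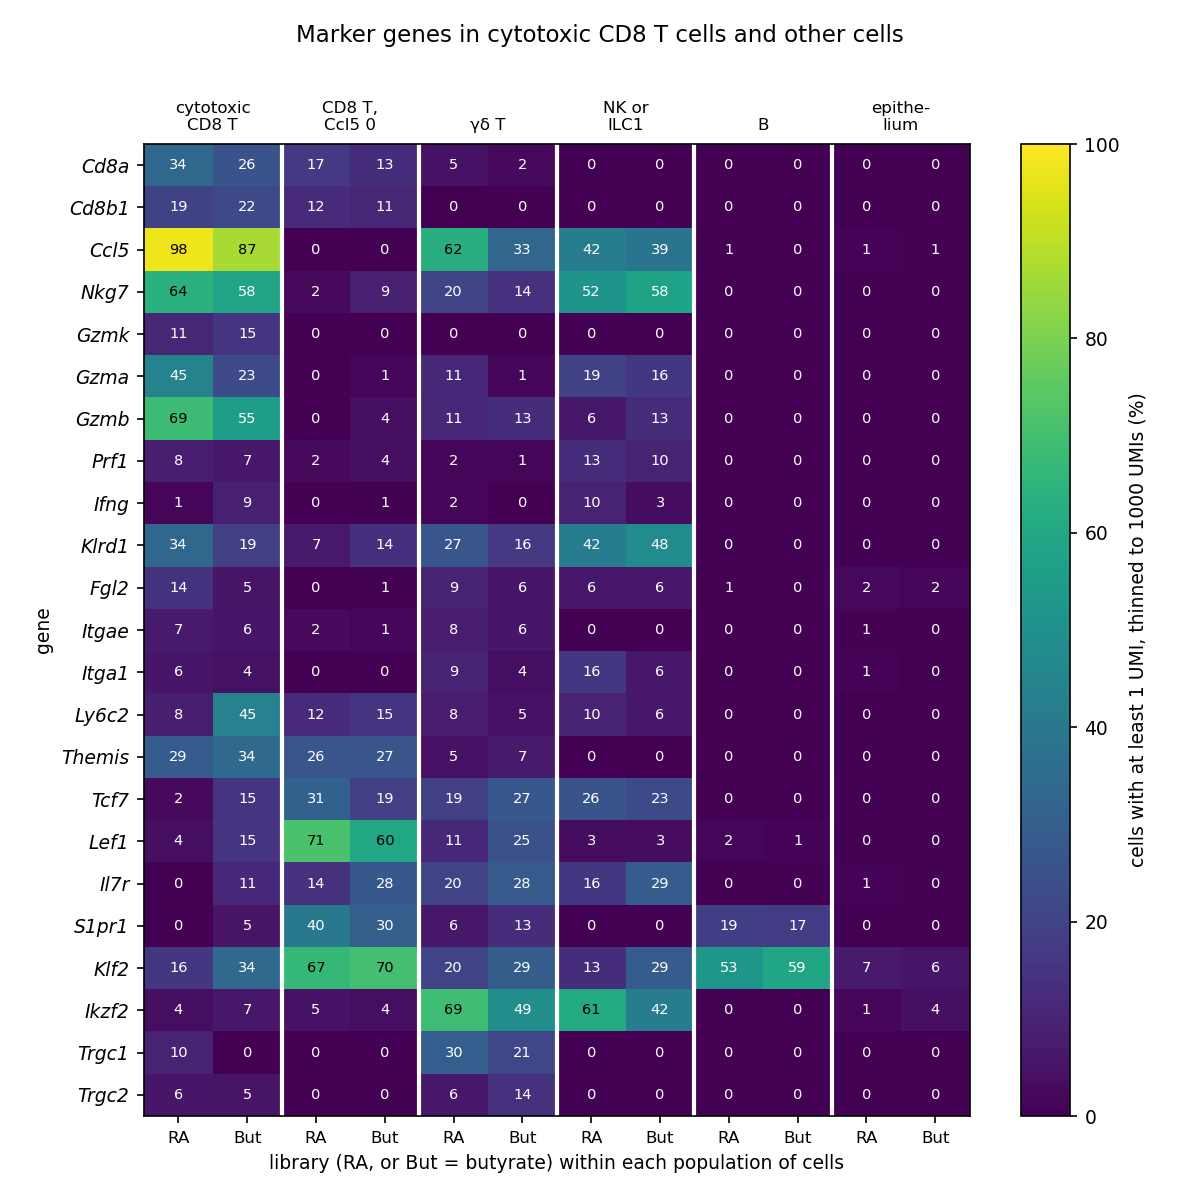
Share of cells with at least 1 UMI (%), after thinning every cell to 1000 UMIs, for 23 genes (rows) in 6 cell populations of each library (columns). Gzmk, Gzma and Gzmb are highest in the cytotoxic CD8 T cells, while Lef1 and S1pr1 are highest in CD8 T cells with no Ccl5 UMI.

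Members were 1.2% (0.958 to 1.49) of kept RA barcodes and 1.66% (1.40 to 1.96) of kept butyrate barcodes, a ratio of butyrate over RA of 1.38 (1.05 to 1.84, exact conditional binomial interval). As a share of barcodes with CD3 UMIs the order was the other way, 12.7% (10.2 to 15.5) of 655 in RA and 11.5% (9.71 to 13.4) of 1195 in butyrate, and that ratio of 0.905 (0.684 to 1.20) spanned 1. T cells as a whole were 9.48% and 14.5% of kept barcodes. Among CD8 T cells, members were 65.9% (56.9 to 74.1) of 126 in RA and 48.6% (42.6 to 54.6) of 282 in butyrate. CD8 T cells with no Ccl5 UMI numbered 42 in RA and 138 in butyrate. Thinning every barcode to 1000 UMIs before the rule left 45 and 48 members. The first ratio was then 0.855 (0.558 to 1.31), an interval that spanned 1, so its direction was not resolved at equal depth. The ratio over CD3 barcodes was then 0.555 (0.362 to 0.852), an interval below 1. Counting only members without a UMI of the gamma chain genes described below, it was 1.81 (1.22 to 2.76), above 1. The direction of the share within T cells thus depended on depth and on which members were counted.

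Gzma, which encodes granzyme A, had the widest gap between libraries among the granule genes. Levels are given as CPM, the UMIs of a gene per 1000000 UMIs summed over the members of a library, and as the ratio of butyrate over RA. Gzma stood at 2206 and 487 UMIs, or 3459 and 369 CPM, a ratio of 0.107 (0.0965 to 0.118). In single cells its median was 1.69 per 10000 UMIs in RA and 0 in butyrate, and the highest cell reached 298 in RA and 32.3 in butyrate. RA cells were therefore spread over a wide range, and the 10 highest held 67.5% of all RA Gzma UMIs. The share of cells with a Gzma UMI was 53% (41.7 to 64.1) and 46% (37.4 to 54.7). In B cells 0.283% and 0.0273% had a Gzma UMI. After thinning to equal depth the shares were 44.6% (33.7 to 55.9) and 23.4% (16.6 to 31.3), whose intervals did not overlap. Without stroma or fat UMIs the ratio of levels was 0.0986.

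Gzmb, which encodes granzyme B, had the most UMIs of the granule genes, at 2416 and 2755 UMIs, or 3789 and 2087 CPM, a ratio of 0.551 (0.521 to 0.582). It was detected in 89.2% (80.4 to 94.9) and 81% (73.4 to 87.2) of members. Gzmk was at 101 and 167 UMIs, or 158 and 127 CPM, a ratio of 0.799 (0.62 to 1.03), an interval that spanned 1, and the ratio was 1.49 in thinned members. Nkg7 was at 1212 and 937 CPM, a ratio of 0.773 (0.706 to 0.846). Prf1, which encodes the pore-forming protein perforin, showed no gap that counting error could resolve, with 39 and 86 UMIs and a ratio of 1.07 (0.722 to 1.6). Fasl, a death receptor ligand, was at 87.8 and 83.3 CPM (ratio 0.949, 0.682 to 1.33). The serpins that protect cells from their own granzymes were higher in butyrate: Serpinb9 at 37.6 and 93.2 CPM (ratio 2.48, 1.59 to 4.01), and Serpinb6b at 116 and 196 CPM (ratio 1.69, 1.3 to 2.22).

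Of 15 granule and killing genes with at least 20 UMIs, 2 were at least 1.5-fold higher in butyrate members and 4 at least 1.5-fold lower. Over all 7761 genes the same cut held 11.1% higher and 15.1% lower, with a median log2 ratio of -0.004. The list's median log2 ratio was -0.08, and -0.42 without stroma or fat UMIs. Genes of the granule list thus pointed in different directions, with Gzma, Gzmb, Gzmc and Tnfsf10 lower in butyrate and both serpins higher.

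**Figure D2:**
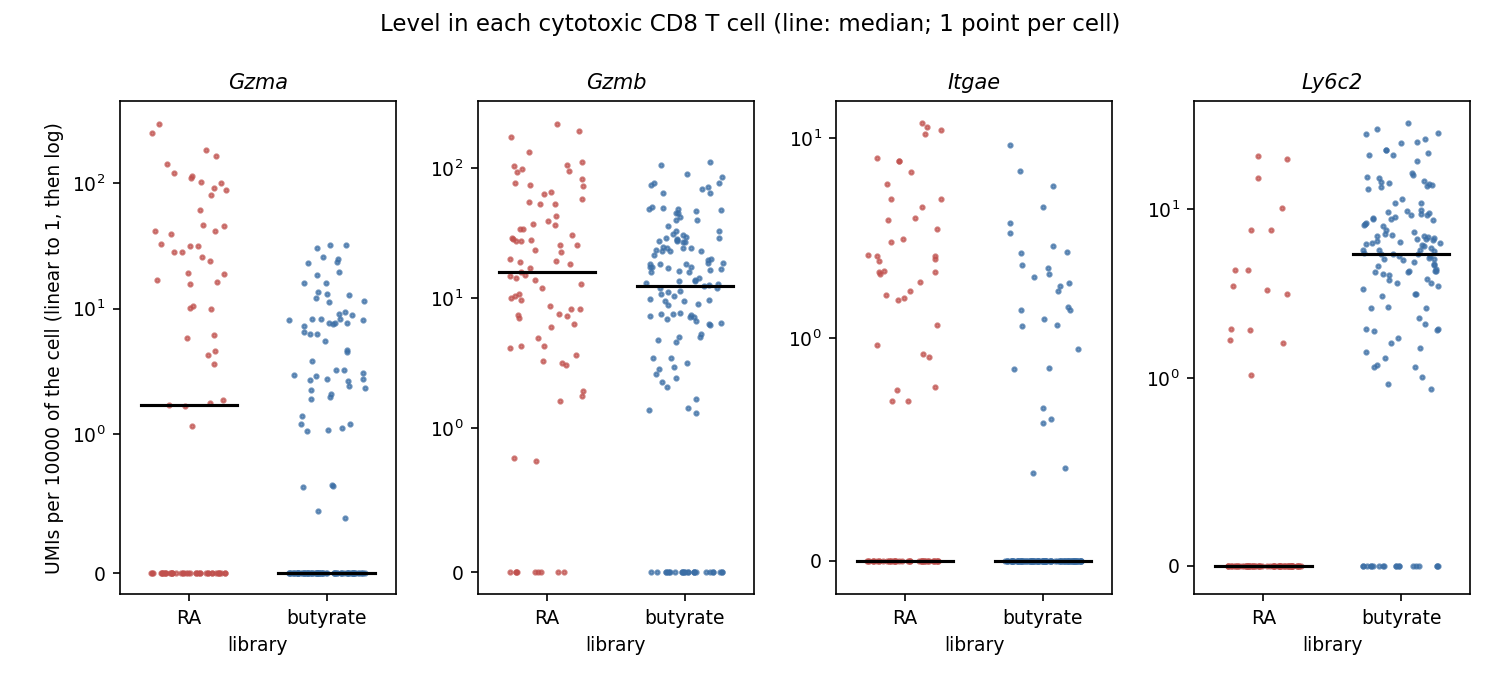
UMIs per 10000 of each cell for Gzma, Gzmb, Itgae and Ly6c2 (y axis, linear to 1 and log above) in the 83 RA and 137 butyrate cytotoxic CD8 T cells (1 point per cell, black line the median). The highest Gzma cells are RA cells, up to 298 against 32.3 in butyrate, while Ly6c2 is at 0 in most RA cells and has a median of 5.44 in butyrate.

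In the GRCm38 build Gzma and Gzmk are neighbours on chromosome 13, both on the minus strand with their RefSeq starts 80.0 kb apart, and Gzmb lies on chromosome 14. Their promoters are shown, with that of Il7r on chromosome 15 as the gene with the highest finite ratio among those named below, since the ratio between libraries ran from 0.107 for Gzma to 10.8 for Il7r. Each sequence runs 5′ to 3′ over the 250 bases before the start (RefSeq, GRCm38.p6, minus strand), and capitals mark the core letters of 2 factor families active in CD8 T cells, the Runx motif TGTGGT and the T-box motif TCACAC, searched on both strands, where they read ACCACA and GTGTGA on the other strand.
Gzma, chr13:113100982-113101231: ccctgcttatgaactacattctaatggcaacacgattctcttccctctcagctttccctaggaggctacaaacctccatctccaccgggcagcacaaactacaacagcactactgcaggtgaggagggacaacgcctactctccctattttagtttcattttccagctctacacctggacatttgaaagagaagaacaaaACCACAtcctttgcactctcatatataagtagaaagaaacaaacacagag
Gzmk, chr13:113180966-113181215: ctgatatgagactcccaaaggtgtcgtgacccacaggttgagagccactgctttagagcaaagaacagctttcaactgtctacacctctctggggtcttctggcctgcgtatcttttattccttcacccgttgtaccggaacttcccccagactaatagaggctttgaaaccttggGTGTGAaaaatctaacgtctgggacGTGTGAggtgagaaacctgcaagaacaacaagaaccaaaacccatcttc
Gzmb, chr14:56262335-56262584: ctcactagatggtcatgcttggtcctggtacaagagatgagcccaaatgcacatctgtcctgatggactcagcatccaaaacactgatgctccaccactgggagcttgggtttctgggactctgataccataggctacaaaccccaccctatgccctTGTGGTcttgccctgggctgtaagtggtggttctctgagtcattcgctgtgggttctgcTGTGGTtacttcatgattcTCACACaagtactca
Il7r, chr15:9529877-9530126: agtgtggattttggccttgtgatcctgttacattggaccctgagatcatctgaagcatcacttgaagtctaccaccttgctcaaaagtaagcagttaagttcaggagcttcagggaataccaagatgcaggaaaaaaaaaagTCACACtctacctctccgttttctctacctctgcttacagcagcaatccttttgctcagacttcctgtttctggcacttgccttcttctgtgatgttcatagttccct
The Runx letters occurred once before Gzma and at 2 places before Gzmb, the T-box letters at 2 places before Gzmk and once each before Gzmb and Il7r, with no match overlapping another. Of 32851 mouse promoters of this length, 14.0% held the Runx letters and 12.3% the T-box letters, so such matches are common and are given as description.

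Of the chemokine ligands, 4 had enough UMIs to compare, too few to describe as a group. Ccl4, an inflammatory chemokine, was at 282 and 209 UMIs, or 442 and 158 CPM, a ratio of 0.358 (0.298 to 0.43), with 42.2% and 38.7% of cells positive, and 1 RA cell held 40.8% of the RA UMIs. Ccl3, a related chemokine, was at 83 and 13 UMIs, or 130.2 and 9.85 CPM, a ratio of 0.0757 (0.0387 to 0.137), and 66.3% of its RA UMIs came from 1 cell. Ccl4 was higher in butyrate, with a ratio of 2.19, among members without a UMI of the gamma chain genes described below. Xcl1 had 8 and 22 UMIs in 3 and 7 cells (ratio 1.33, 0.57 to 3.45). Ccl5 itself, which chose the cells, had a median of 104 UMIs per cell in RA and 50 in butyrate.

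Effector cytokines were sparse. Ifng, which encodes interferon gamma, had 42 and 127 UMIs in 23 and 47 cells, a ratio of 1.46 (1.02 to 2.12), and 1 butyrate cell held 32.3% of the butyrate UMIs. Tnf had 16 and 20 UMIs (ratio 0.604, 0.297 to 1.25). Il10, which encodes a suppressive cytokine, had 19 UMIs in 11 RA cells and 6 in 5 butyrate cells (ratio 0.153, 0.0499 to 0.397). Il17a, Il21, Il4 and Il22 had no UMI in any member. Of the 5 effector cytokines tested, 0 were at least 1.5-fold higher and 2 lower, with a median log2 ratio of -0.29. The median was -0.18 as a mean over cells and 0.44 with no UMI minimum.

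Among receptors shared with NK cells, the CD94 and NKG2 chains were abundant. Klrd1 (CD94) was at 390.5 and 316 CPM (ratio 0.809, 0.69 to 0.951), and at a ratio of 0.488 in thinned members. Its partner Klrc1 (NKG2A) was closer between libraries, at 284 and 262 CPM (ratio 0.924, 0.769 to 1.11, and 0.975 in thinned members). Klrk1, the activating receptor NKG2D, was at 114 and 169 CPM (ratio 1.48, 1.13 to 1.95), and Cd160 at 39.2 and 72.7 CPM (ratio 1.86, 1.18 to 3.01). Cd244a, an activating or inhibitory receptor of the SLAM family, was lower in butyrate at 42.3 and 20.5 CPM (ratio 0.483, 0.273 to 0.856), but its ratio was 2.23 among members without a gamma chain UMI. Klrg1, a marker of terminal effector cells, had 2 and 3 UMIs. Of 12 such genes tested, 2 were at least 1.5-fold higher and 4 lower, beside 11.1% and 15.1% of all genes. The 4 lower were Cd244a, Cd226, Fcer1g and Tyrobp. Fcer1g was in 4 RA and 3 butyrate members and Tyrobp in 3 and 2. Both lay under 5% of their level in another class of cells. The median of the list was -0.23, and -0.32 without stroma or fat UMIs and 0.54 among members without a gamma chain UMI.

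Genes of naive and central memory T cells were higher in butyrate members, and this was the list with the largest shift. Of 11 tested, 8 were at least 1.5-fold higher and 1 was lower, and their median log2 ratio was 1.72, and 1.76 without stroma or fat UMIs. S1pr1, the receptor that lets lymphocytes leave tissue towards lymph and blood, had no UMI in the 83 RA members. A floor of 3 cells allows an RA share of up to 3.61%, and the exact binomial upper limit was 4.35%. In butyrate, S1pr1 had 92 UMIs in 40 of 137 members. Taking 3 UMIs as the floor over the RA members, its level was at least 14.8-fold higher in butyrate, and at least 9.86-fold without stroma or fat UMIs by the same floor. The exact interval of the ratio over all members began at 11.8. With a Ccl5 cut of 1 UMI, S1pr1 had 6 UMIs in RA and 103 in butyrate, a ratio of 8.02. Il7r, the interleukin 7 receptor chain that keeps naive and memory T cells alive, had 8 UMIs in 3 RA members and 178 in 45 butyrate members, a ratio of 10.8 (5.34 to 25.3).

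Lef1, a transcription factor of naive and memory T cells, was at 34 and 424 UMIs, or 53.3 and 321 CPM, a ratio of 6.03 (4.24 to 8.82). It was detected in 19.3% (11.4 to 29.4) of RA and 74.5% (66.3 to 81.5) of butyrate members. After thinning the shares were 3.61% (0.752 to 10.2) and 15.3% (9.75 to 22.5), whose intervals overlapped slightly. Tcf7, its partner factor, was at 18 and 160 UMIs, or 28.2 and 121 CPM, a ratio of 4.29 (2.63 to 7.43). Ccr7, the lymph node homing receptor, was at 14.1 and 82.6 CPM (ratio 5.85, 2.97 to 13.1). Klf2, which drives S1pr1 in T cells, was at 239.9 and 552 CPM (ratio 2.3, 1.93 to 2.76), Klf3 at 72.1 and 240.2 CPM (ratio 3.33, 2.44 to 4.64) and Bach2, a repressor that holds back effector genes, at 231 and 532 CPM (ratio 2.31, 1.93 to 2.78). The gene that was lower, Igfbp4, had 95 UMIs in 6 RA cells and 2 in butyrate, and it is also a stroma gene. Bcl2, a survival factor, was at 299.5 and 311 CPM (ratio 1.04, 0.874 to 1.24).

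**Figure D3:**
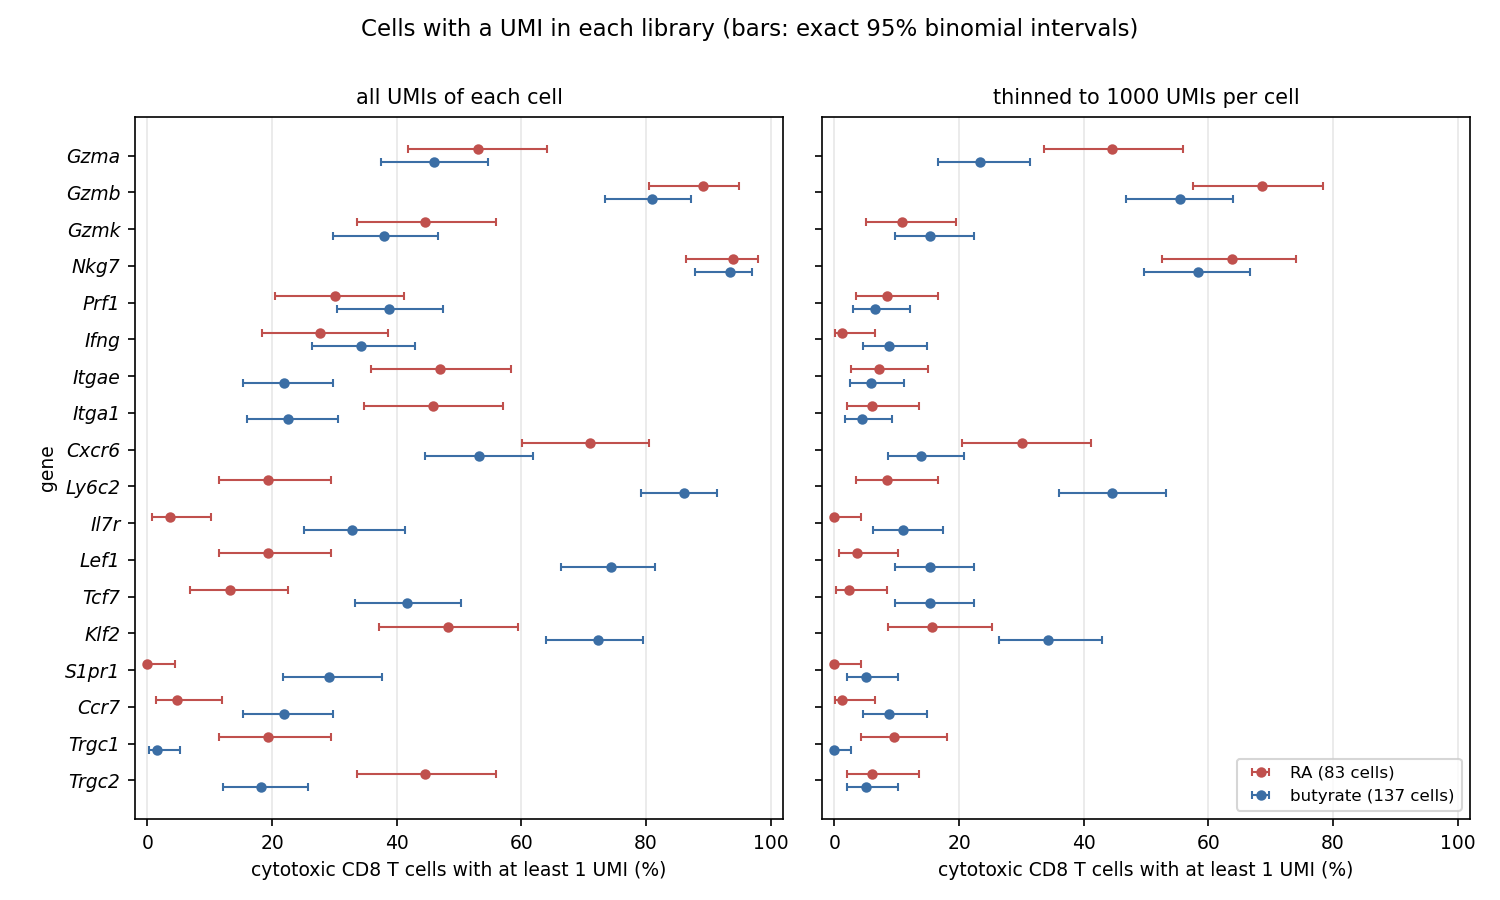
Share of cytotoxic CD8 T cells with at least 1 UMI (%, x axis) of 18 genes (y axis) in the RA (83 cells) and butyrate (137 cells) libraries, with all UMIs (left) and after thinning to 1000 UMIs per cell (right), bars giving exact 95% binomial intervals. The intervals of the libraries stay apart for Ly6c2 in both panels, and the thinned intervals of Itgae and Itga1 overlap.

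Ly6c2, a surface protein of memory and recently activated CD8 T cells in blood and tissue, was named after its values were seen. It had 87 UMIs in 16 of 83 RA members and 928 in 118 of 137 butyrate members, or 136 and 703 CPM, a ratio of 5.15 (4.13 to 6.5). The share with a UMI was 19.3% (11.4 to 29.4) and 86.1% (79.2 to 91.4), and after thinning 8.43% and 44.5%. In CD8 T cells with no Ccl5 UMI, by comparison, it was found in 40.5% of RA and 50.7% of butyrate cells, and in B cells in 1.17% and 1.04%. The libraries lay closer together in those cells than in the members, a contrast that was not tested.

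Residency genes pointed the opposite way to the naive and memory genes. Of 14 tested, 2 were at least 1.5-fold higher in butyrate and 7 lower, with a median log2 ratio of -0.53, and -0.59 without stroma or fat UMIs. Itgae, the alpha chain of the CD103 integrin that binds epithelial E-cadherin, was at 112 and 70 UMIs, or 176 and 53 CPM, a ratio of 0.302 (0.221 to 0.411), in 47% (35.9 to 58.3) and 21.9% (15.3 to 29.8) of cells. After thinning, when a typical positive cell holds about 1 UMI, the shares were 7.23% and 5.84%. Itga1, the collagen-binding integrin CD49a, was at 71 and 55 UMIs, or 111 and 41.7 CPM, a ratio of 0.374 (0.258 to 0.54). Cxcr6, a chemokine receptor of resident T cells, was at 285 and 149 CPM (ratio 0.52, 0.423 to 0.64). Its thinned shares were 30.1% (20.5 to 41.2) and 13.9% (8.56 to 20.8), whose intervals overlapped slightly. Rgs1, which dampens chemokine signalling, was at 693 and 513 CPM (ratio 0.74, 0.655 to 0.836). Cd69, which opposes S1PR1 at the surface and is also an activation gene, was the other way, at 281 and 395 CPM (ratio 1.41, 1.18 to 1.68), but at 0.897 among members without an Itgae UMI. Ctla2a, a protease inhibitor of T cells, was also higher in butyrate (ratio 1.87, 1.63 to 2.14).

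Homing receptors were close to or above the RA level. All 9 tested had a ratio above 1, and 3 were at least 1.5-fold higher. Itga4, the chain that pairs with Itgb7 for gut homing and with beta 1 for inflamed tissue, was at 263 and 579 CPM (ratio 2.2, 1.86 to 2.61), while Itgb7 was at 152 and 154 CPM (ratio 1.01, 0.79 to 1.3). Cxcr4, the receptor for Cxcl12, had 12 and 102 UMIs (ratio 4.11, 2.25 to 8.21), and Ccr2 49 and 187 UMIs (ratio 1.84, 1.34 to 2.58). Cxcr3, the receptor of effector T cells for interferon-induced chemokines, was at 53.3 and 63.6 CPM (ratio 1.19, 0.793 to 1.83). Ccr9, the receptor for small-intestinal homing, had 6 and 7 UMIs.

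Of 13 regulators of effector fate, 7 were at least 1.5-fold lower in butyrate members and 0 higher, with a median log2 ratio of -0.62, but the median was -0.16 without stroma or fat UMIs. Zeb2, a repressor that promotes terminal effector cells, was at 147 and 87 UMIs, or 231 and 65.9 CPM, a ratio of 0.286 (0.217 to 0.375), and at a ratio of 0.349 without stroma or fat UMIs. Prdm1, which encodes Blimp-1, had 31 UMIs in each library (ratio 0.483, 0.284 to 0.822), and Tbx21, which encodes T-bet, 37 and 42 (ratio 0.548, 0.344 to 0.877). Id2, an inhibitor of E proteins needed by effector and innate-like lymphocytes, was at 820.2 and 533 CPM (ratio 0.65, 0.58 to 0.73). Nr4a1, an early target of T cell receptor signalling, had a ratio of 0.533 (0.416 to 0.685) over all members and 0.9 without stroma or fat UMIs. Runx3, the CD8 lineage factor, was at 284 and 298 CPM (ratio 1.05, 0.878 to 1.26), Hopx had a ratio of 1.05 (0.859 to 1.29), and Eomes 18 and 42 UMIs (ratio 1.13, 0.635 to 2.08).

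T cell receptor signalling genes had a median log2 ratio of 0.005 over 15 genes, of which 3 were at least 1.5-fold higher and 0 lower, and a median of 0.36 among members without a gamma chain UMI. Trac was at 448 and 436 CPM (ratio 0.973, 0.843 to 1.13) and Trbc2 at 1474 and 1479.8 CPM (ratio 1.0, 0.928 to 1.09), while Trbc1 was at 340.3 and 603 CPM (ratio 1.77, 1.52 to 2.07). These near-identical constant genes can share reads, so their split is uncertain. Cd28, the main costimulatory receptor, was at 395 and 799 CPM (ratio 2.02, 1.76 to 2.33).

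Of 11 checkpoint genes, 4 were at least 1.5-fold lower and 1 higher, with a median of -0.31 that ranged from -0.16 to -0.25 in the 4 settings that ended its call. Havcr2 (TIM-3), an inhibitory receptor, was at 62.7 and 15.2 CPM (ratio 0.242, 0.134 to 0.423), Lag3 at 54.9 and 28.8 CPM (ratio 0.525, 0.323 to 0.855), and Tox, a factor of exhausted and tissue T cells, at 168 and 74.3 CPM (ratio 0.443, 0.333 to 0.588). Pdcd1 (PD-1) had 25 and 60 UMIs (ratio 1.16, 0.716 to 1.93), and Ctla4, the checkpoint gene with the most UMIs, a ratio of 0.764 (0.677 to 0.863). Cd27, a costimulatory receptor kept by memory cells, was the 1 gene at least 1.5-fold higher in butyrate (ratio 1.91, 1.44 to 2.56).

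Cytokine receptors had a median of 0.37, and 0.10 without stroma or fat UMIs. Of 13 tested, 3 were at least 1.5-fold higher and 3 lower. Those that were higher answer interleukins 12 and 18, which drive interferon gamma: Il18r1 had 6 and 85 UMIs (ratio 6.84, 3.02 to 19.2), Il18rap 17 and 92 (ratio 2.61, 1.55 to 4.68), and Il12rb2 46 and 265 (ratio 2.78, 2.03 to 3.89). Il12rb1, the other chain of the interleukin 12 receptor, pointed lower on 13 and 9 UMIs (ratio 0.335, 0.126 to 0.846).

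In the type I interferon list 5 of 12 were at least 1.5-fold lower and 0 higher, with a median of -0.33, which was -0.16 among members without an Itgae UMI, -0.13 without a gamma chain UMI, and -0.25 and -0.24 with a Ccl5 cut of 1 and 3 UMIs. In the interferon gamma list 3 of 16 were lower and 0 higher, near the 15.1% of all genes that were lower, with a median of -0.23. Isg15, a ubiquitin-like protein, was at 95.7 and 26.5 CPM (ratio 0.277, 0.178 to 0.427). Ifi27l2a was at 822 and 514 CPM (ratio 0.625, 0.557 to 0.702), and Bst2, which tethers virus particles, at 81.5 and 53.8 CPM (ratio 0.66, 0.455 to 0.962). The GTPases Irgm1 and Irgm2 had ratios of 0.403 (0.211 to 0.761) and 0.299 (0.138 to 0.626). MHC class I genes had a median of -0.10, with H2-K1 at 2945 and 2808 CPM, B2m at 2784 and 2853 CPM, and H2-T23, which presents to NKG2A, at 303 and 202 CPM (ratio 0.666, 0.551 to 0.806).

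Cell cycle genes had a median of 0.41, with 6 of 18 at least 1.5-fold higher and 0 lower. Ube2c, which acts at mitotic exit, was in 14 of 83 RA and 39 of 137 butyrate members (ratio of levels 1.81, 1.37 to 2.41). Top2a was in 21 and 47 (ratio 1.54, 1.24 to 1.93), and Mki67 in 14 and 36 (ratio 1.27, 0.977 to 1.67). Among members without an Itgae UMI the median was -0.12, and Top2a had a ratio of 0.854. The direction of this list thus depended on which members were counted.

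Genes for butyrate uptake, sensing and deacetylation showed no shared direction, with a median log2 ratio of 0.05 over 8 genes, 1 at least 1.5-fold higher and 2 lower. Slc16a1, a transporter of butyrate and lactate, had 21 and 47 UMIs (ratio 1.08, 0.634 to 1.9). The deacetylases that butyrate inhibits included Hdac1 at 84.7 and 122 CPM (ratio 1.44, 1.05 to 2.0) and Hdac2 at 13 and 48 UMIs (ratio 1.78, 0.951 to 3.59), both above 1, and Hdac3 (ratio 0.749, 0.413 to 1.39) and Hdac5 (ratio 0.628, 0.254 to 1.6), both below it. Hdac4 was at 1.01 and Hdac7 at 1.26. The receptors Ffar2 and Hcar2 had at most 2 UMIs a library and Ffar3 had none. Glycolysis, the nuclear-encoded respiratory chain, and fatty acid oxidation had medians of 0.01, 0.05 and 0.15 over 12, 17 and 12 genes. Of these, 0, 1 and 1 were at least 1.5-fold higher and 3, 0 and 0 lower, beside 11.1% and 15.1% of all genes. Ndufa4 was the respiratory gene above that line (ratio 1.63, 1.42 to 1.88).

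Immediate early genes, which tissue dissociation and receptor signalling both induce, were at least 1.5-fold lower in butyrate for 12 of 18 and higher for 1, with a median of -1.0. Without stroma or fat UMIs the median was -0.069. Jun had 283 and 55 UMIs (ratio 0.0939, 0.069 to 0.126, and 0.677 without those cells), Fos 278 and 89 UMIs (ratio 0.155, 0.12 to 0.197, and 0.791), and Egr1 365 and 132 UMIs (ratio 0.175, 0.142 to 0.214, and 0.96). Leaving out members with a gamma chain UMI also ended the gap, with a median of 0.015 and ratios of 0.669 for Jun and 1.4 for Fos, and leaving out members with an Itgae UMI gave -0.23. Dusp2, a phosphatase of activated T cells, was higher in butyrate, at 97.2 and 242 CPM (ratio 2.49, 1.89 to 3.33, and 1.93 without those cells). Heat shock genes had a median of 0.10, but the inducible Hspa1a and Hspa1b had ratios of 0.281 and 0.277, and 0.698 and 0.847 without those cells.

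**Figure D4:**
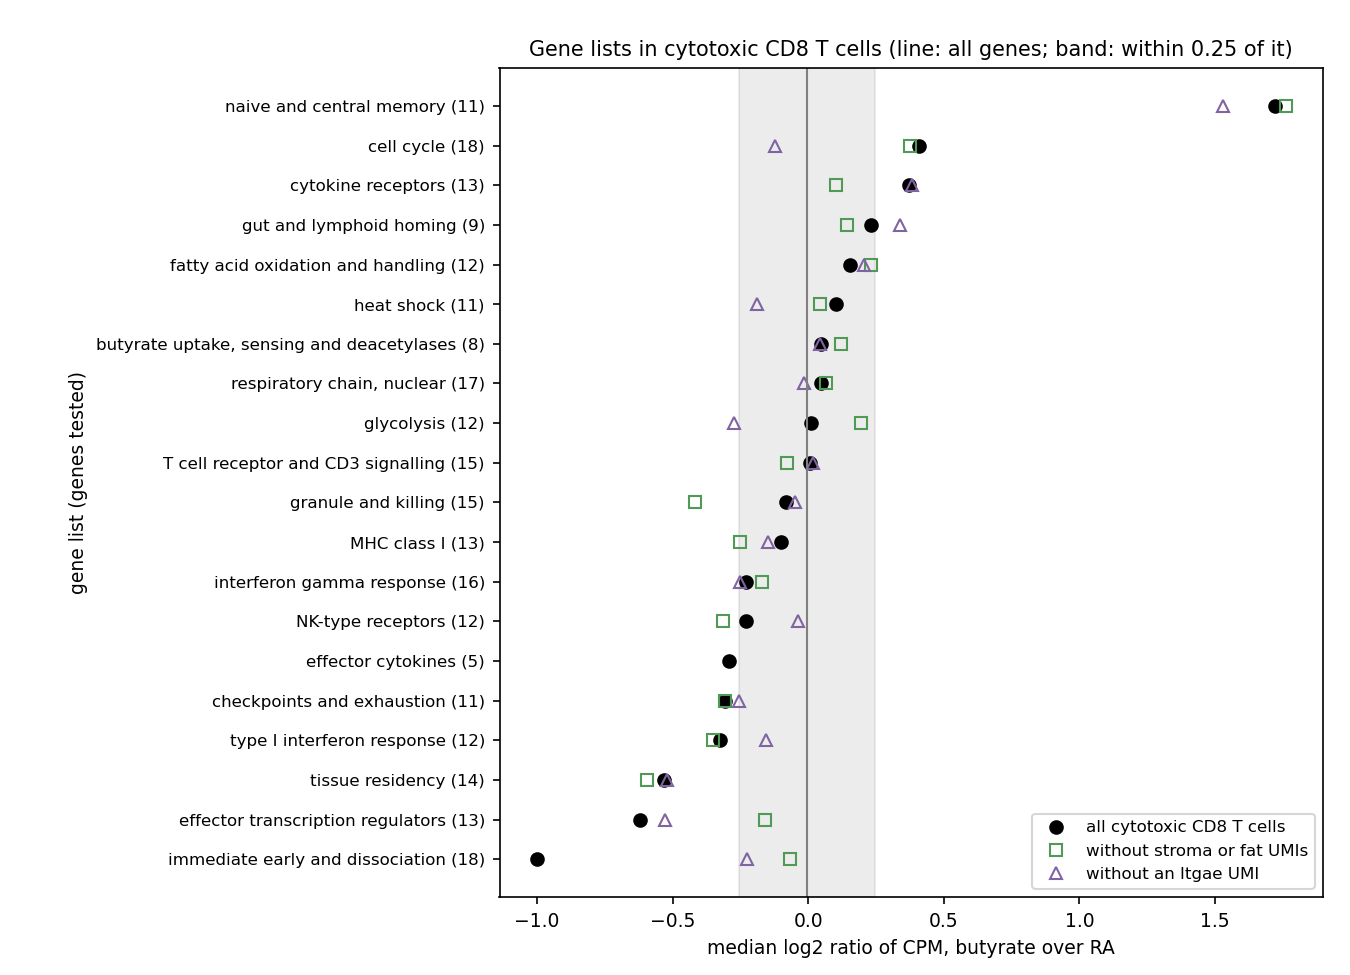
Median log2 ratio of CPM, butyrate over RA (x axis), for 20 gene lists in cytotoxic CD8 T cells (y axis, number of genes tested in brackets), for all members, for those without stroma or fat UMIs and for those without an Itgae UMI (a symbol is missing where fewer than 5 genes could be tested). The naive and central memory list lies at 1.72, 1.76 and 1.53, while the immediate early list goes from -1.0 to -0.069 and -0.23.

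The 10 genes with the highest ratios among those with at least 50 UMIs were S1pr1, Il7r, Cmah, Myb, Il18r1, Lef1, Fgf13, Ccr7, Ust and Tnfrsf26. Cmah, which makes the sialic acid Neu5Gc, had 5 UMIs in 3 RA members and 74 in 45 butyrate members (ratio 7.15, 2.93 to 22.7). Myb, a factor of stem-like CD8 T cells, had 5 and 74 UMIs (ratio 7.15, 2.93 to 22.7). Ust, a sulfotransferase, had 7 and 84 UMIs (ratio 5.8, 2.69 to 14.9), and Tnfrsf26 7 and 81 (ratio 5.59, 2.59 to 14.3). Fgf13 had 10 UMIs in 6 RA members and 121 in 29 butyrate members (ratio 5.85, 3.07 to 12.5).

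The 10 lowest were Cfd, Car3, Fabp4, Lpl, Adamdec1, Cyp2e1, Sparc, Igfbp5, Mgst1 and Igfbp3, genes of fat and stroma. Cfd, a fat cell protease, had 1812 UMIs in 4 RA members and none in butyrate, with 1809 of them in 1 cell, and Car3 had 592 UMIs in 1 cell. Adamdec1, a gene of gut fibroblasts and macrophages, had 360 UMIs in 7 RA members. These 10 genes came from 1 to 8 RA cells each. The same ranking over members without stroma or fat UMIs, which was chosen after the values were seen, gave Ccl3, Gzma, Fgl2, Ccl4, Itgae, Furin, Insig1, Isg15, Pde4a and Itga1 as the 10 lowest. Fgl2, a secreted fibrinogen-like effector molecule, was then at 144 and 38.0 CPM (ratio 0.263, 0.177 to 0.388), in 51.6% of 62 RA and 20% of 135 butyrate members. Furin, a protease that processes growth factors, was at 175 and 51.1 CPM (ratio 0.293, 0.207 to 0.413). The highest 10 then held 8 of the 10 above, with Rasa3, a regulator of integrin signalling (ratio 7.54, 3.89 to 16.7), and Actn1 (ratio 7.15, 2.69 to 26.8) in place of Ccr7 and Tnfrsf26. Over all members Rasa3 was at 2.25 and Actn1 at 4.16, and among those without a gamma chain UMI at 1.05 and 2.84.

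**Figure D5:**
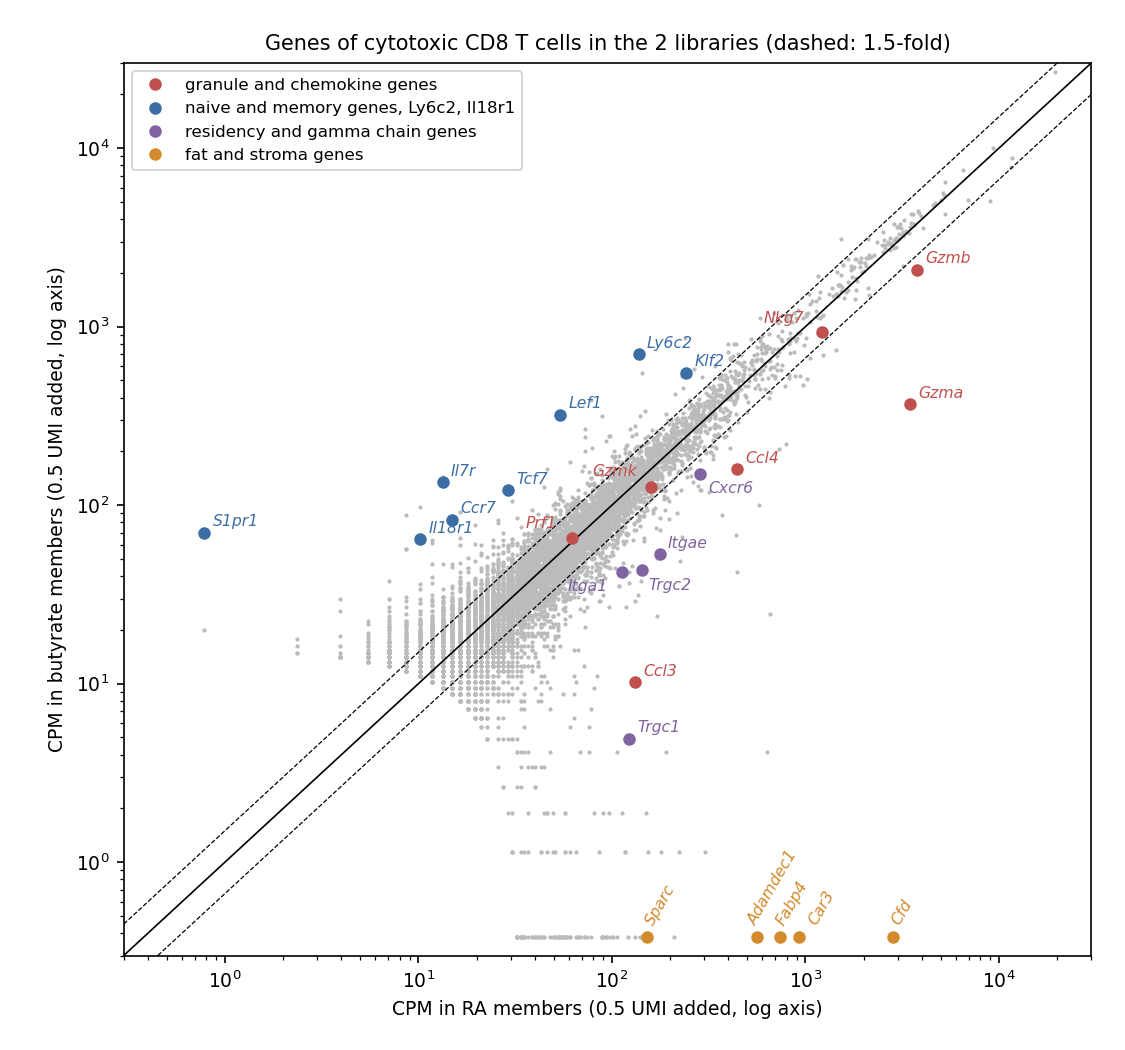
Level of each of 7761 genes (grey points) in the summed RA members (x axis, CPM) and butyrate members (y axis, CPM), both on log axes with 0.5 UMI added to each sum, and dashed lines at 1.5-fold. S1pr1, Il7r and Lef1 lie above the band, Gzma and Trgc1 below it, and the fat and stroma genes at the bottom have no butyrate UMI.

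Constant genes of the gamma chain, which alpha-beta T cells can transcribe without making the protein, set the libraries apart although the rule had removed cells with Trdc UMIs. A UMI of Trgc1, Trgc2 or Trgc4 was seen in 50 of 83 RA members and 28 of 137 butyrate members. Each of these cells also had a Trac or Trbc UMI. So did 82 of 83 and 137 of 137 members in all, so this does not tell these cells from other members. Trgc1 had 78 UMIs in 16 RA members and 6 in 2 butyrate members (ratio 0.0372, 0.0132 to 0.0846), and Trgc2 91 and 57 UMIs in 37 and 25 cells (ratio 0.303, 0.213 to 0.426). These genes are near-identical in sequence, so reads can be split between them. In B cells none of 2470 RA and 3667 butyrate cells had a Trgc1 or Trgc2 UMI. A Trgv UMI was seen in 18 of 83 RA and 16 of 137 butyrate members. It was seen in 0 of 42 and 4 of 138 CD8 T cells with no Ccl5 UMI. Among gamma delta T cells, which have a Trdc UMI, 27 of 64 and 31 of 85 had one. Trgv2 was the segment in 13 of 18 RA and 11 of 16 butyrate members with any Trgv UMI. No member had a Trdv UMI, but the rule had removed cells with Trdc UMIs. Only 10 of 64 and 28 of 85 gamma delta T cells had a Trdv UMI, so its absence decides little. Trav3-3 was seen in 6 of the 14 RA and 5 of the 27 butyrate members with a Trav UMI, and Trbv segments, seen in 17 and 38 members, were spread over 10 and 12 genes. In members without a gamma chain UMI (33 RA and 109 butyrate), Gzma had a ratio of 0.166, Lef1 5.6 and Itgae 0.678.

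Compared with CD8 T cells of the same rule but no Ccl5 UMI (42 RA and 138 butyrate cells, median 7245 and 7497 UMIs), members had more transcript of granule genes in both libraries. Ccl5 separated these sets, so the values are a description. Of 14 granule genes tested, 9 were at least 2-fold higher in both and 0 lower, where 4.49% of 5879 genes were higher and 2.08% lower by that cut. Gzma had 2206 against 2 UMIs in RA and 487 against 16 in butyrate. Gzmb was at 3789 against 85.6 CPM in RA and 2087 against 131 in butyrate, ratios of 44.3 and 16, and Fasl had ratios of 10.6 and 13.9. Among NK-type receptors 7 of 10 were higher in both, led by Cd244a (15.3 and 12) and Klrc1 (11.4 and 6.01). Residency genes were higher for 8 of 14, with Itga1 at 71 against 2 UMIs in RA and 55 against 3 in butyrate and Cxcr6 at ratios of 6.89 and 12.4.

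Other genes high in members of both libraries were Fgl2, with 90 against 1 UMIs in RA and 49 against 1 in butyrate, Ifitm1, with 23 against 0 UMIs in RA and 77 against 3 in butyrate, and Prdm1, at ratios of 17.6 and 9.16. Tmem163, a zinc transporter, Lilr4b, an inhibitory receptor, Arsb, a lysosomal sulfatase, and Pik3ap1, an adaptor for PI3 kinase, completed the 12 highest. Pik3ap1 had 57 against 1 UMIs in RA and 111 against 13 in butyrate. Naive and central memory genes were lower in members, 10 of 13 in both libraries. Dapl1, a gene of naive and quiescent T cells, had 0 against 22 UMIs in RA and 2 against 115 in butyrate. Lef1 was at ratios of 0.049 and 0.277, Il7r at 0.0361 and 0.393, and Tcf7 at 0.112 and 0.498, so the RA ratio was the lower one for all 3 genes, a contrast that was not tested. Patj, Ramp3, Tdrp and Prss12 were also among the 6 lowest. Ribosomal protein genes took 19.0% and 21.1% of UMIs in members against 30.7% and 33.4% in the other CD8 T cells.

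Against gamma delta T cells (64 RA and 85 butyrate cells with a Trdc UMI), 2.64% of 6179 genes were at least 2-fold higher and 3.95% lower in both libraries, and 5 of 14 granule genes were higher. Gzmk had 101 and 167 UMIs in members and none in gamma delta T cells of either library. Gzmb was at 3789 against 338 CPM in RA and 2087 against 189.8 in butyrate, and Gzma at 3459 against 273 CPM in RA and 369 against 9.12 in butyrate. Sh2d1a, the adaptor SAP, had 50 against 2 UMIs in RA and 276 against 11 in butyrate. Cell cycle genes were higher in members for 12 of 17, among them Birc5 at ratios of 7.72 and 14.1 and Top2a at 4.63 and 4.61. Lower in members were Il23r, the receptor of interleukin 17-producing lymphocytes, with 0 against 123 UMIs in RA and 1 against 132 in butyrate, the scavenger receptor Cd163l1, with 0 against 94 UMIs in RA and 2 against 205 in butyrate, and Xcl1, with 8 against 418 UMIs in RA and 22 against 434 in butyrate. Ikzf2, which encodes Helios, was at 0.0441 and 0.0872 of the gamma delta level.

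Against NK or ILC1 cells (31 in each library), 4.54% of 5358 genes were at least 2-fold higher and 5.47% lower in both libraries. Themis, a factor for T cell receptor signal strength, had 278 and 719 UMIs in members and none in NK or ILC1 cells, which the rules separate on CD3. Gzmk again had none there, and Gzmb had ratios of 20.5 and 7.42. Xcl1, a chemokine for cross-presenting dendritic cells, had 8 against 748 UMIs in RA and 22 against 632 in butyrate, and Kit 7 against 100 UMIs in RA and 21 against 91 in butyrate. Tyrobp and Fcer1g, the adaptor chains of NK receptors, were at ratios of 0.0378 and 0.00681, and of 0.0396 and 0.0139. Serpinb9 was lower in members as well, at 0.118 and 0.233. Thus 3 of 13 granule genes were lower than in NK or ILC1 cells and 2 higher.

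Members varied among themselves. An Itgae UMI was present in 39 of 83 RA members (median 7645 UMIs, against 5699 without) and 30 of 137 butyrate members (10510 against 8171). Gzma was higher with Itgae in RA and lower in butyrate, a contrast that was not tested: it was at 5654 against 909 CPM in RA and 284 against 400.2 CPM in butyrate, ratios of 6.22 (5.47 to 7.1) and 0.71 (0.565 to 0.886). Among cells, 79.5% (63.5 to 90.7) of RA members with Itgae had a Gzma UMI and 29.5% (16.8 to 45.2) of those without, against 56.7% (37.4 to 74.5) and 43.0% (33.5 to 52.9) in butyrate. Without the Itgae cells the ratio of Gzma between the libraries was 0.44, beside 0.107 over all members. Ly6c2 was scarce in RA members with Itgae, at 3 against 84 UMIs in RA and 152 against 776 in butyrate with and without. Higher with Itgae in both libraries were Hspa1b, Phlda1, Cdc20, Cd55 and Fos, and lower Zhx2, Snx29, Simc1, Bcl2l1 and Scmh1. The intervals of Snx29 spanned 1 in RA (0.116 to 1.02) and in butyrate (0.0308 to 1.12), and that of Scmh1 spanned 1 in RA (0.138 to 1.05). Cd55, which protects cells from complement, had 28 against 4 UMIs in RA and 26 against 23 in butyrate, and Bcl2l1, a survival gene, 20 against 43 UMIs in RA and 9 against 79 in butyrate.

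A Cd8b1 UMI, which marks the CD8 alpha-beta form, was present in 58 RA and 111 butyrate members, while 25 and 26 had Cd8a alone. With a median of 1 and 2 Cd8b1 UMIs, a cell without the transcript and one whose molecules were not captured cannot be told apart. Ikzf2 was lower with Cd8b1, at 53.4 against 235 CPM in RA and 41.3 against 737 CPM in butyrate, ratios of 0.227 (0.132 to 0.383) and 0.056 (0.0393 to 0.0784). Ccl4 was higher with it, at 569 against 94.2 CPM in RA and 180.3 against 39 CPM in butyrate, ratios of 6.04 (3.65 to 10.7) and 4.62 (2.3 to 10.8). The mitotic genes Ube2c and Pttg1 were also higher with Cd8b1, with ratios of 5.63 (2.09 to 21.3) and 3.94 (2.16 to 8.01) for Ube2c and 3.31 (1.6 to 7.97) and 5.76 (2.6 to 15.9) for Pttg1. Tcf7 was lower with Cd8b1, at 0.363 (0.128 to 1.03) and 0.455 (0.321 to 0.656). Gzmb was near the same level in both, at 0.912 (0.835 to 0.998) and 1.09 (0.976 to 1.21).

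A Gzmk UMI was present in 37 RA and 52 butyrate members. Tcf7 was lower with Gzmk in both libraries, at ratios of 0.311 (0.0744 to 0.989) and 0.33 (0.204 to 0.512), as was Ikzf2, at 0.111 (0.039 to 0.255) and 0.31 (0.2 to 0.464). Cxcl10, an interferon-induced chemokine, had 4 against 34 UMIs in RA and 0 against 39 in butyrate with and without. Il10ra, the interleukin 10 receptor, was higher, at ratios of 4.62 (1.51 to 18.9) and 2.08 (1.19 to 3.63). Gzma was higher with Gzmk in butyrate, 4.24 (3.49 to 5.18), and less so in RA, 1.33 (1.22 to 1.45). Gzmb was detected in 94.6% (81.8 to 99.3) of RA and 92.3% (81.5 to 97.9) of butyrate members with Gzmk, and in 84.8% (71.1 to 93.7) and 74.1% (63.5 to 83.0) of those without.

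Splits by Ly6c2 and Il7r were added after their values were seen. Ikzf2 again stood on the other side: it had 0 against 65 UMIs in RA and 46 against 151 in butyrate with and without Ly6c2. Cd244a was lower with Ly6c2, at ratios of 0.153 (0.00374 to 0.934) and 0.179 (0.0782 to 0.428), and Setbp1 higher, at 2.48 (1.91 to 3.21) and 2.48 (1.42 to 4.72). Gzma was at 0.0494 (0.0325 to 0.0721) with Ly6c2 in RA and 1.64 (1.16 to 2.4) in butyrate. The 45 butyrate members with an Il7r UMI had more Tcf7, 237 against 62.8 CPM (ratio 3.77, 2.7 to 5.32), and less Gzmb, 1231 against 2521 CPM (ratio 0.488, 0.444 to 0.536). RA had 3 members with an Il7r UMI, too few to describe.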

How the data were processed

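Single-cell 3′ libraries (v3.1 chemistry, per the labels' protocols) gave 2 matrices of whole-number UMI counts per gene and barcode, which were deposited filtered to barcodes but not normalized. The matrix header, per the file headers, names Cell Ranger 7.1.0, while the submitters' processing notes list Cell Ranger 6.0.1, Seurat 4.0.3 and Seurat 4.0.4 and the mm10 build. Of 31253 gene identifiers 31107 were in GENCODE release 21 for mouse (GRCm38). The members, gene lists and markers were chosen with earlier results of these data known.

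UMIs were summed over members of each library and given as CPM, scaled to that sum, with exact Poisson, Clopper-Pearson and conditional binomial 95% intervals (scipy 1.17.1). Genes needed 20 UMIs over both libraries between libraries, and 20 in each library between populations. For log2 ratios 0.5 UMI was added to each sum. Lists of at least 5 tested genes were called when their median lay 0.25 or more from that of all genes. No doublets were removed beyond the rule. Removing the highest Scrublet scores (0.8% per 1000 barcodes, scanpy 1.11.5) was an alternative. Intervals and ratios were checked on simulated counts in which every UMI was independent. That check cannot show what UMIs clustered in few cells do to an interval.

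Gamma delta T cells had at least 2 CD3 UMIs and a Trdc UMI, and NK or ILC1 cells no CD3 UMI, at least 1 of Ncr1 or Klrb1c, and a Nkg7 UMI (1 further gene of that rule is not reported here), all without Foxp3 (gamma delta), Cd79a or Epcam UMIs. B cells had at least 2 Cd79a UMIs, no CD3 or Epcam UMI and fewer than 5 of Jchain. Named genes were the 10 highest and 10 lowest ratios with at least 50 UMIs and an interval that did not span 1 (leaving out mitochondrial, ribosomal protein, receptor and immunoglobulin segment, hemoglobin, Y-linked and unnamed genes, Xist, and those under 5% of their level in another class), up to 4 farthest and the 3 most abundant genes of each list, the 12, 6 and 6 highest and 6 lowest against each population, the 5 highest and 5 lowest of each split, the markers, and the 10 most abundant genes. Ly6c2, Tcf7, Klf3, Prf1, Fasl, Ctla2a, Jun family members and other list genes outside that rule were named after their values were seen.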

Additional observations from a re-analysis of the deposited data

Results flagged for a closer look

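Some genes lay above the other CD8 T cells of their own library in 1 mouse and below them in the other, comparing members with CD8 T cells that had no Ccl5 UMI. With 1 library a group this contrast between libraries was not tested. Jun had a ratio of members over those cells of 4.46 in RA and 0.251 in butyrate, Fos of 1.84 and 0.313, Dusp1, a phosphatase that limits MAP kinase signals, of 2.45 and 0.578, and Zfp36, a factor that shortens cytokine mRNAs, of 1.80 and 0.461. The immediate early list as a whole had a median log2 ratio, less that of all genes, of 0.450 in RA and -0.460 in butyrate. The list's median between libraries was -0.069 in place of -1.0 when the 21 RA members with stroma or fat UMIs were left out, and 0.015 without members with a gamma chain UMI.

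Bst2 and Irf1, which interferons induce, had ratios of 1.85 and 1.74 in RA and 0.605 and 0.687 in butyrate. The opposite order held for Cd2, an adhesion and costimulatory receptor, at 0.642 in RA and 1.98 in butyrate, for Klf3 at 0.322 and 1.29, and for Dusp2 at 0.629 and 1.39.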

How the results depend on the processing

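All values are ratios or median log2 ratios of butyrate over RA, and there was 1 mouse a group, so no alternative speaks to variation between mice. No paired analysis was possible because each group had 1 library. Alternatives that left out members with stroma or fat UMIs, with a gamma chain (Trgc) UMI, without a Cd8b1 UMI or with an Itgae UMI were chosen after seeing the data. Depth limited the sparse genes: thinned shares of genes such as Itgae lie near the level of 1 UMI a cell, and no order was read from them.

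The ratio of the members' share of kept barcodes, 1.38, was 0.855 when barcodes were thinned before the rule, 5.86 with 1 RA and 7 butyrate members that had no UMI of other lineages, 2.77 without Trgc and 2.04 without Itgae. The ratio over CD3 barcodes, 0.905, was 0.555 (0.362 to 0.852), 3.84 (0.493 to 173), 1.81 (1.22 to 2.76) and 1.33 (0.93 to 1.94) under the same settings. The 860 genes at least 1.5-fold higher became 116 of 751 with thinning before the rule, 175 of 549 without other lineages, 2021 of 15151 with no UMI minimum and 320 of 1902 with members thinned, and the 1175 lower became 143, 148, 4778 and 280.

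Of the lists called, these medians moved across the line of 0.25. Effector cytokines were at -0.18 as a mean over cells and 0.44 with no UMI minimum. Effector regulators were at -0.16 without stroma or fat. Checkpoints were at -0.23 with the UMI floor of the butyrate library, -0.25 with a mitochondrial limit of 10% and without Itgae (-0.25), and -0.16 with no minimum. Cytokine receptors were at 0.058 thinned and 0.10 without stroma or fat. The type I interferon list was at -0.25 and -0.24 with a Ccl5 cut of 1 and 3 UMIs, -0.33 with no minimum (all genes then at -0.11), -0.13 without Trgc and -0.16 without Itgae. Cell cycle was at 0.16 thinned, 0.23 with Cd8b1 and -0.12 without Itgae. Immediate early genes were at -0.069 without stroma or fat, 0.015 without Trgc and -0.23 without Itgae. Lists that were not called crossed the line too. Granule genes were at -0.42 without stroma or fat, -0.53 thinned before the rule and -0.28 without other lineages, NK-type receptors at -0.32 without stroma or fat and 0.54 without Trgc, and T cell receptor signalling at 0.36 without Trgc. Homing genes were at 0.26 with a mitochondrial limit of 10%, 0.23 with no minimum, 0.43 without Trgc and 0.34 without Itgae, and interferon gamma genes at -0.31 with doublets removed. MHC class I was at -0.25 without stroma or fat, the respiratory chain at 0.58 thinned before the rule, fatty acid oxidation at 0.36 as a mean over cells and 0.21 without Itgae, and heat shock at -0.50 without other lineages. Naive and central memory and residency medians stayed past the line under each alternative that left 5 or more genes to test.

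Genes named in the text whose interval did not span 1 changed direction as follows. Without other lineages, with 1 RA cell, Ccl4 was at 1.74, Gzmb at 4.33, Nkg7 at 3.89 and Rgs1 at 1.70. Without Trgc, Ccl4 was at 2.19, Cd244a at 2.23, Fos at 1.40 and Ikzf2 at 0.825. Without Itgae, Cd160 was at 0.994, Cd69 at 0.897, Top2a at 0.854 and Ikzf2 at 0.837. Ikzf2 was at 0.772 with Cd8b1 and 0.592 thinned before the rule, where Cd69 was at 0.75. Top2a was at 0.644 in thinned members. Genes whose interval spanned 1 had no direction to lose, and some crossed 1: Gzmk was at 1.49 and Runx3 at 0.632 in thinned members, and Klrc1 at 1.47, Eomes at 0.62, Hopx at 0.714 and Fasl at 1.30 without Trgc. The cause was not tested for any of these.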

Other observations

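Granzymes overlapped within cells. All 44 RA members with a Gzma UMI also had Gzmb, as did 61 of 63 in butyrate, while Gzmb without Gzma was seen in 30 and 50 members. Gzmk and Ly6c2 shared 10 of 37 Gzmk-positive RA members and 47 of 52 in butyrate, against 6 of 46 and 71 of 85 Gzmk-negative members. Il7r in butyrate members was seen beside Ly6c2 in 41 of 45 cells, against Ly6c2 in 77 of 92 members without Il7r. Itgae was in 9 of 45 members with Il7r and 21 of 92 without, so both genes had similar shares with and without Il7r.

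Beta chain segments were seen in few cells. In RA no Trbv segment was in more than 3 of 17 members with a Trbv UMI, and in butyrate Trbv12-2 and Trbv29 were each in 7 of 38. Gene counts hold no junction sequences, so clones were not analysed here.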
